A study of Homo sapiens with 12 samples.

Results

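The kallikrein genes described here were KLK1, KLK2, KLK3, KLK4, KLK5, KLK6, KLK8, KLK10, KLK11 and KLK15, 10 of the 60660 genes in the deposited tables, selected by their symbols. They belong to the 15 genes KLK1 to KLK15, which lie side by side on chromosome 19. The data were mRNA libraries of 2 human PCa cell lines, with 3 libraries in each of 4 groups. LNCaP cells come from a prostate cancer that had spread to a lymph node and respond to androgen. 22Rv1 cells come from a xenograft that grew back after castration of its host. The study calls both lines androgen-sensitive, although it also lists 22Rv1 as androgen-independent. In each line, one group was transfected with NC-mimic, the negative control, and the other with piR-4447944 mimic, a synthetic copy of a piRNA. All 4 groups were kept in androgen-deprived medium with 10% charcoal-stripped serum (CS-FBS), and each line stands for itself only. The labels do not say whether the 3 libraries of a group came from separate cultures, so the p-values measure the spread between these libraries, which may be technical.

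Kallikreins are secreted serine proteases that are made as inactive precursors and are activated by cleavage. In the prostate, androgen drives the transcription of KLK3 and KLK2 through response elements near these genes, and KLK3, which encodes prostate-specific antigen (PSA), is read as a marker of the androgen response. PSA cleaves semenogelins in semen, and the KLK2 protease is known to activate the precursor of PSA. KLK4 is also expressed in the prostate, and KLK1 encodes tissue kallikrein, which releases kinins from kininogens.

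In GENCODE v44 on hg38, the members lie between KLK1 (chr19:50819146-50823787, minus strand) and KLK11 (chr19:51022216-51028039, minus strand). KLK3 (chr19:50854915-50860764) and KLK2 (chr19:50861568-50880567) are neighbours, and they are the members on the plus strand. KLK15 (chr19:50825289-50837213) and KLK4 (chr19:50906351-50911395) lie on either side of this pair, on the minus strand. The spans of KLK1, KLK3, KLK2, KLK4 and KLK11 overlap no other annotated gene. KLK15, KLK5, KLK6, KLK8 and KLK10 overlap long noncoding RNA genes on the opposite strand, and KLK6 and KLK8 also overlap genes on their own strand, KLK9 among them for KLK8. The strand of the libraries is not given in the sources used here, so reads of these 5 members and of their overlapping genes may not have been told apart.

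The start regions of KLK3, KLK2 and KLK4 are shown because the first 2 genes were lower and KLK4 was higher in 22Rv1 than in LNCaP. Each sequence runs 5′ to 3′ along its gene from 250 bases before to 50 bases after the RefSeq start (GRCh38.p14). Capitals mark a match to GAACANNNNGTNCT, searched on both strands. This is a loose form of the letters of an androgen response element, in which N is any base. KLK3 is chr19:50854665-50854964 on the plus strand, KLK2 is chr19:50873189-50873488 on the plus strand, and KLK4 is chr19:50911346-50911645 on the minus strand.
KLK3: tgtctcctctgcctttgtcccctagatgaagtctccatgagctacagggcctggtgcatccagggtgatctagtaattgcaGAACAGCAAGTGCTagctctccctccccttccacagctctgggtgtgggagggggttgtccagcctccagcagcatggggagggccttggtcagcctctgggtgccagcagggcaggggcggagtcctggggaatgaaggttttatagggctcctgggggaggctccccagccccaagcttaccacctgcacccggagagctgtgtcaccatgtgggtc
KLK2: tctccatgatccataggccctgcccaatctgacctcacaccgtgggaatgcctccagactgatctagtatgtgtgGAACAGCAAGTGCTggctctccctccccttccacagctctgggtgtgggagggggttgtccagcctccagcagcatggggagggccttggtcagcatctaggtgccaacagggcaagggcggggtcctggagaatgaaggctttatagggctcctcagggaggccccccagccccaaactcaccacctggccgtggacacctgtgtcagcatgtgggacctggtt
KLK4: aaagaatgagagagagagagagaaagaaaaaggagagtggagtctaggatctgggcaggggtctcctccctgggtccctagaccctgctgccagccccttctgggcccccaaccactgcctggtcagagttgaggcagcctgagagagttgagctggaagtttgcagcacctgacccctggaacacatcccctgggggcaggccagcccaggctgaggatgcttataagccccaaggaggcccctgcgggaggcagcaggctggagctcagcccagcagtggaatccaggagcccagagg
The match began 169 bases before the RefSeq start of KLK3 and 175 bases before that of KLK2, and its 14 letters were identical in both genes. The RefSeq start of KLK2 lies inside its GENCODE span (chr19:50861568-50880567) and not at the first base of it. In a global alignment, the KLK3 and KLK2 windows had 245 identical bases, 46 mismatched bases and 18 gap positions. The identity was 84.2% with gaps left out. Over the windows of KLK4, KLK5, KLK6, KLK10, KLK11 and KLK15, the identity with KLK3 was between 52.5% and 61.9%, again with gaps left out. Their alignments had 34 to 60 gap positions, and none of these windows held the match. Of the 35116 RefSeq windows of this length, 87 or 0.248% held it. The half-site letters AGAACA, which overlap the longer match, were present in the KLK3 window and not in that of KLK2, and 14.8% of all windows held them on either strand. RefSeq windows were found for 8 of the 10 members, without KLK1 and KLK8. The loose pattern may have been set to fit the known element of KLK3. Its match there and in the similar KLK2 window, and its rarity, are therefore no support. A match of letters is a description of the sequence and does not show binding, and its relation to the levels was not tested.

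The libraries held 12161091 to 22179601 expected counts each. Both lines expressed the luminal prostate markers HOXB13, KRT8, KRT18 and FOLH1 in every library, with FOLH1 at 1209 to 1343 TPM in LNCaP and 230.9 to 556.0 TPM in 22Rv1, and KRT8 at 382.6 to 431.8 and 346.6 to 821.1 TPM. The 3 basal markers were under 1 TPM in every library. The summed TPM of the 3 neuroendocrine markers was 0.74 to 2.10 in LNCaP and 61.0 to 72.6 in 22Rv1, mostly SYP at 58.5 to 66.9 TPM, with INSM1 at 0 in all 22Rv1 libraries. Of the 5 stromal and leukocyte markers, COL1A1 alone was at 1 TPM or more in every library of both lines, and the summed level was 25.1 to 43.0 TPM in LNCaP and 4.65 to 23.3 TPM in 22Rv1. The ranges of SYP and COL1A1 did not overlap between the lines, and their part in the results was not tested. The 2 replicate 3 libraries of 22Rv1 stood apart, with a chi-square per gene of 37.7 to 106.2 against replicates 1 and 2 of their groups, while the other pairs of replicates gave 3.43 to 15.0. Fits of the members in 22Rv1 are therefore also given without them where they change. The gene lists and the likeness of genes below rest on all libraries.

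KLK3 was by far the most abundant kallikrein in LNCaP cells, and KLK4 was the most abundant in 22Rv1 cells. In LNCaP, KLK3 reached 2005, 1857 and 2268 TPM with NC-mimic and 1828, 1900 and 1998 TPM with piR-4447944 mimic. In 22Rv1, it reached 46.3, 53.4 and 49.1 TPM with NC-mimic and 30.7, 40.4 and 24.8 TPM with piR-4447944 mimic. Every LNCaP library was far above every 22Rv1 library. In such bulk libraries, fewer cells that express a gene and less RNA per cell cannot be told apart. Among all genes ranked by TPM, KLK3 held ranks 69 to 85 in the 6 LNCaP libraries and ranks 2846 to 5776 in the 6 22Rv1 libraries.

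KLK2 came second in LNCaP, with 425.5, 414.5 and 488.4 TPM under NC-mimic and 389.7, 393.6 and 425.6 TPM under piR-4447944 mimic. It was at 93.3, 121.0 and 107.2 TPM in the 22Rv1 libraries with NC-mimic and at 65.0, 99.1 and 84.0 TPM in those with piR-4447944 mimic. The lines did not overlap. KLK4, which is also known for its part in the maturation of tooth enamel, had the opposite order, with 143.6, 143.6 and 127.7 TPM in LNCaP with NC-mimic and 117.1, 133.2 and 108.3 TPM with piR-4447944 mimic. Its 22Rv1 values were 314.4, 338.1 and 328.6 TPM with NC-mimic and 279.7, 318.4 and 224.3 TPM with piR-4447944 mimic. Every 22Rv1 library was above every LNCaP library.

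KLK1 was a gene of the 22Rv1 libraries. Its levels there were 125.0, 140.7 and 248.4 TPM with NC-mimic and 85.0, 112.5 and 165.6 TPM with piR-4447944 mimic, and the replicate 3 library was the highest of each group. In LNCaP it had 2 expected counts over the 3 libraries of each group, or at most 0.13 TPM in a library. KLK11, which encodes a trypsin-like protease, was at 11.7, 17.6 and 10.4 TPM in 22Rv1 with NC-mimic and at 12.2, 18.4 and 7.48 TPM with piR-4447944 mimic, and here replicate 3 was the lowest of each group. In LNCaP, it had 1 expected count over the 3 libraries of NC-mimic and 4 over those of the mimic. KLK15 was low in both lines, with 2.01 to 2.96 TPM in LNCaP with NC-mimic, 1.79 to 2.71 TPM in LNCaP with piR-4447944 mimic, 3.92 to 13.3 TPM in 22Rv1 with NC-mimic and 4.33 to 9.51 TPM in 22Rv1 with piR-4447944 mimic. Its highest value in each 22Rv1 group was again that of replicate 3.

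The other 4 members were at or near 0. KLK6, which is known from the nervous system, had 0 counts in all 12 libraries, which allows up to 0.0626 CPM (expected counts over the TMM-scaled library size) in any group at the limit of 3 counts over 3 libraries. KLK5, a protease of skin shedding, had 2 counts in 1 library, 22Rv1 with NC-mimic, replicate 3. KLK10 had 0 counts in the 6 LNCaP libraries, 9, 2 and 9 counts in 22Rv1 with NC-mimic and 0, 12 and 1 counts with piR-4447944 mimic. Against a limit of 3 counts over the LNCaP group, the scaled 22Rv1 counts were 7.41-fold higher with NC-mimic. With piR-4447944 mimic they were 4.37-fold higher. Such values limit the LNCaP side only. Counting error and the spread between libraries in 22Rv1 are left out, so they are not lower bounds of the difference. KLK8, also called neuropsin, had 0 counts in LNCaP, 0, 8 and 28 counts in 22Rv1 with NC-mimic and 1, 8 and 2 counts with piR-4447944 mimic. The corresponding values, with the same limit, were 13.3-fold and 3.69-fold higher in 22Rv1. The 28 counts of KLK8 were listed as 21.7 TPM, since its effective length was 129.2 bases in that library and 369.9 and 775.6 bases in the other libraries of the group, so its TPM was not used to order the members.

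**Figure D1:**
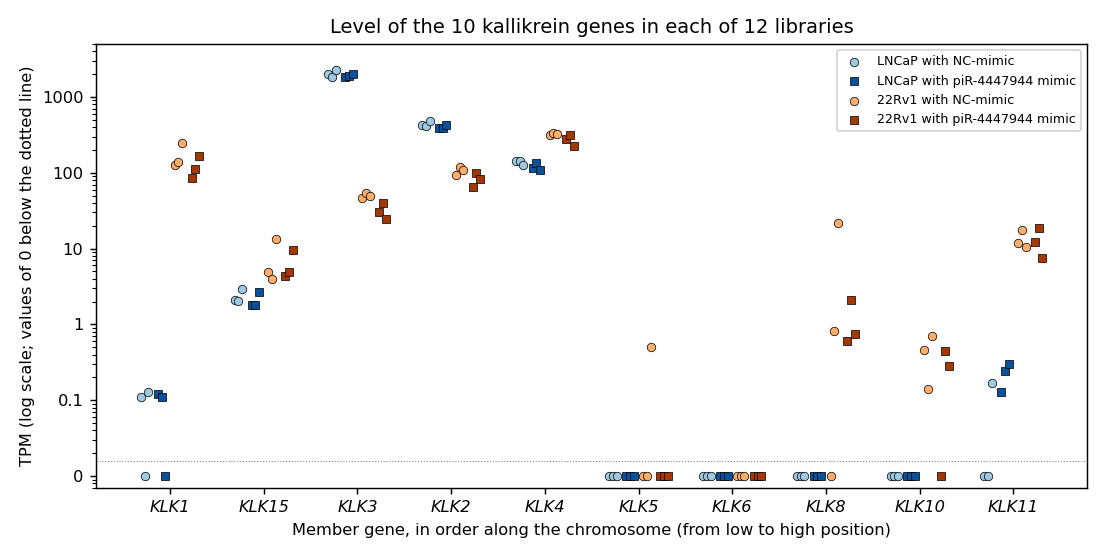
TPM of each kallikrein gene (log axis, values of 0 set below the dotted line) in each of the 12 libraries, with genes in their order along the chromosome and libraries coloured by group. KLK3 lies at 1828 TPM or more in LNCaP and at 53.4 TPM or less in 22Rv1, and KLK1 lies at 85.0 TPM or more in 22Rv1 and at 0.13 TPM or less in LNCaP.

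The order of the members in LNCaP was KLK3, KLK2, KLK4 and KLK15 in each of the 6 libraries, and no neighbours in this order overlapped within either group. In 22Rv1 the order was KLK4, KLK1, KLK2 and KLK3 in each of the 6 libraries. With NC-mimic these 4 did not overlap, whereas KLK1 (85.0 to 165.6 TPM) and KLK2 (65.0 to 99.1 TPM) overlapped with piR-4447944 mimic. KLK11 and KLK15 followed and overlapped in both 22Rv1 groups. The summed TPM of the 10 members was 2627 ± 239.1 (SD, n = 3) in LNCaP with NC-mimic, 2434 ± 99.4 in LNCaP with piR-4447944 mimic, 683.9 ± 92.2 in 22Rv1 with NC-mimic and 530.1 ± 60.4 in 22Rv1 with piR-4447944 mimic. KLK3 made up 77.7% ± 0.86 of this sum in LNCaP with NC-mimic and 7.32% ± 0.89 in 22Rv1 with NC-mimic. The share of KLK2 was similar in both, 16.9% ± 0.32 and 15.8% ± 2.08. KLK4 took 5.31% ± 0.79 in LNCaP and 48.3% ± 5.52 in 22Rv1, and KLK1 took 24.6% ± 6.33 in 22Rv1.

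The first comparison asked which members differed between the lines under NC-mimic. Of the 10 members, 6 passed the filter on low counts, and all 6 differed in the quasi-likelihood test of edgeR, with p-values adjusted by Benjamini-Hochberg over 17497 genes, 4 higher and 2 lower in 22Rv1. Of all genes tested, 30.9% were called higher and 27.5% lower, so calls were common. KLK1 and KLK11 passed the filter through the 22Rv1 libraries alone and had to differ, so they do not count as support. KLK3 was lower by -5.30 ± 0.14 on the log2 scale (SE, adjusted p = 2.30e-07), which is 39.5-fold. KLK2 was lower by -1.99 ± 0.13 (adjusted p = 1.03e-05), or 3.97-fold. KLK4 was 2.56-fold higher in 22Rv1, with a log2 fold change of 1.36 ± 0.10 (adjusted p = 1.47e-05). KLK15 was 3.51-fold higher, with a log2 fold change of 1.81 ± 0.54 (adjusted p = 0.0190).

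The call of KLK15 rested on few counts. In NC-mimic libraries its expected counts were 31, 30 and 38 in LNCaP and 82, 55 and 149 in 22Rv1, where replicate 3 was the highest. Without that library, the log2 fold change was 1.00. Its adjusted p was 0.0708 without LNCaP replicate 1 and 0.0751 without LNCaP replicate 2, both past the limit of 0.05.

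The counts of KLK1 and KLK11 gave the size of their difference directly. With NC-mimic, KLK1 had 4052 counts over the 22Rv1 libraries and 2 over the LNCaP libraries, a ratio of 2251 after scaling, with an exact 95% interval of 622.8 to 18595.5. KLK11 had 452 counts against 1, a ratio of 502.2 with an interval of 89.7 to 19881.1. These intervals cover counting error only and leave out the spread between libraries, so they are not set against the fitted differences of other members.

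The same comparison in libraries with piR-4447944 mimic, none of which entered the fit above, called KLK3 and KLK2 lower and KLK4 and KLK15 higher in 22Rv1 again. KLK1 and KLK11 again passed the filter through 22Rv1 alone and are no support. Here 28.2% of the 17283 genes tested were higher and 24.2% were lower in 22Rv1. KLK3 was lower by -5.95 ± 0.31 on the log2 scale (edgeR, adjusted p = 2.56e-05) and KLK2 by -2.34 ± 0.19 (adjusted p = 0.000115). KLK4 was higher by 1.27 ± 0.14 (adjusted p = 0.000485) and KLK15 by 1.57 ± 0.44 (adjusted p = 0.0209). Leaving out LNCaP replicate 1 or 2 again ended the call of KLK15, with an adjusted p of 0.0780 and 0.0795. The pooled ratio was 1440 for KLK1 (interval 398.2 to 11894.9) and 97.0 for KLK11 (interval 37.6 to 357.7).

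**Figure D2:**
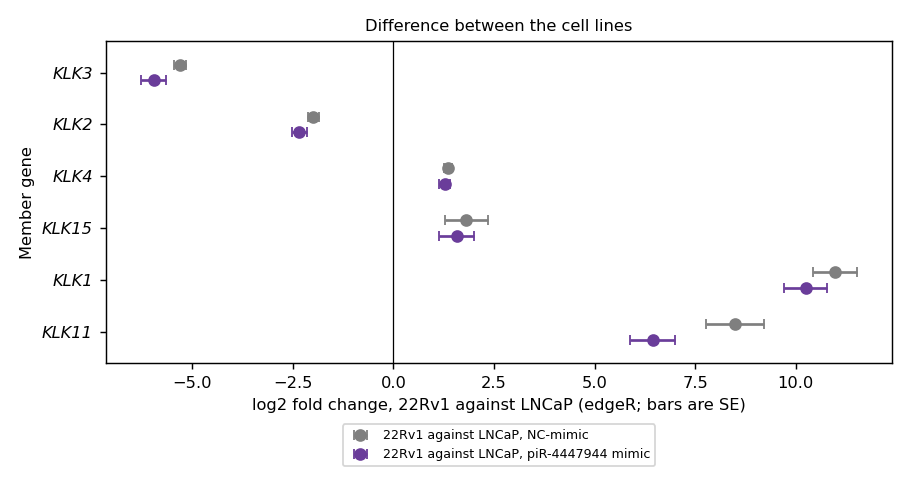
log2 fold change (x axis) of 22Rv1 against LNCaP for the 6 members tested, with NC-mimic in grey and piR-4447944 mimic in purple and bars for the SE of edgeR. KLK3 and KLK2 lie left of 0 and KLK4, KLK15, KLK1 and KLK11 right of 0 in both comparisons; KLK1 and KLK11 had 1 to 4 counts per LNCaP group, so their fitted position depends on the prior count.

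KLK3 and KLK2 did not differ between the lines by the same factor. The ratio of KLK3 to KLK2 TPM was 4.71, 4.48 and 4.64 in LNCaP with NC-mimic and 0.496, 0.442 and 0.458 in 22Rv1 with NC-mimic. In words, KLK3 was above KLK2 in every LNCaP library and below it in every 22Rv1 library. The exact two-sided permutation test over 3 and 3 libraries gave p = 0.1, the smallest value it can give. With piR-4447944 mimic, the ratio was 4.74 ± 0.08 (SD, n = 3) in LNCaP and 0.391 ± 0.09 in 22Rv1, with the same smallest exact p of 0.1. All 24 expected counts of KLK3 and KLK2 were whole numbers within 0.005, so no gene-level count of this similar pair carried a fraction from reads divided between genes.

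The second question was whether piR-4447944 mimic moved the kallikreins. In LNCaP, the values of the most abundant members lay close together, with KLK3 at 2043 ± 208.1 TPM (SD, n = 3) under NC-mimic and 1909 ± 85.5 TPM under the mimic. Of the 4 members tested, edgeR called 0 at an adjusted p under 0.05, and 0 met the looser rule that the study used, in which the unadjusted p is under 0.05 and the log2 fold change is over 0.2 in either direction. The study applied this rule to DESeq2 with shrunken fold changes, whereas edgeR values were used for it here. In LNCaP, 361 genes met it with edgeR and 3 with DESeq2. Of the 16244 genes tested with edgeR, 0% were called by the adjusted p, 2.67% had an unadjusted p under 0.05 and 2.22% met the study's rule. The log2 fold changes were -0.10 ± 0.07 (SE) for KLK3, -0.15 ± 0.07 for KLK2, -0.16 ± 0.10 for KLK4 and -0.05 ± 0.34 for KLK15, with an adjusted p of 0.999 for each. Their median was -0.12, beside -0.0027 over all genes. Without the library of piR-4447944 mimic replicate 2, KLK4 met the study's rule. DESeq2 and limma also called 0 members at an adjusted p under 0.05.

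In 22Rv1, the mimic libraries had lower KLK3 values than all NC-mimic libraries (24.8 to 40.4 TPM with the mimic and 46.3 to 53.4 TPM with NC-mimic), but the difference did not pass the adjusted test. The log2 fold change of KLK3 was -0.76 ± 0.28 (edgeR, SE, adjusted p = 0.999) and that of KLK2 was -0.53 ± 0.21. KLK1 had -0.56 ± 0.33, KLK4 -0.26 ± 0.15, KLK15 -0.33 ± 0.59 and KLK11 -0.23 ± 0.42, each with an adjusted p of 0.999. Of the 6 members tested, 0 were called by edgeR at an adjusted p under 0.05, and 0 by DESeq2 or limma. The biological coefficient of variation of edgeR, a measure of spread between libraries, was 0.343 in 22Rv1 and 0.0964 in LNCaP. Changes of the same size were therefore harder to detect in 22Rv1. The 2 members that met the study's rule, KLK3 and KLK2, compare with 1.48% of the 16898 genes tested, the same share that had an unadjusted p under 0.05, while 0% of all genes were called by the adjusted p. The median log2 fold change was -0.43 over the 6 members and -0.01 over all genes.

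The count by the study's rule turned on single libraries. It was 0 without replicate 2 or replicate 3 of the NC-mimic group and 0 without replicate 1 of the mimic group. With the replicate number as a block, a pairing taken from the values alone, 3 members met the study's rule, KLK1 (-0.54 ± 0.12), KLK2 (-0.55 ± 0.14) and KLK3 (-0.82 ± 0.23). All 3 had an adjusted p of 0.869 in this fit. Without both replicate 3 libraries, KLK3 was at -0.47 ± 0.17 and KLK1 at -0.47 ± 0.14, and these 2 met the study's rule. The effective length of KLK3 was 921.9 bases in the mimic replicate 3 library and 1107 to 1216 bases in the other 22Rv1 libraries, which enters its TPM but not its counts of 395, 672 and 268 with the mimic and 881, 780 and 594 with NC-mimic.

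**Figure D3:**
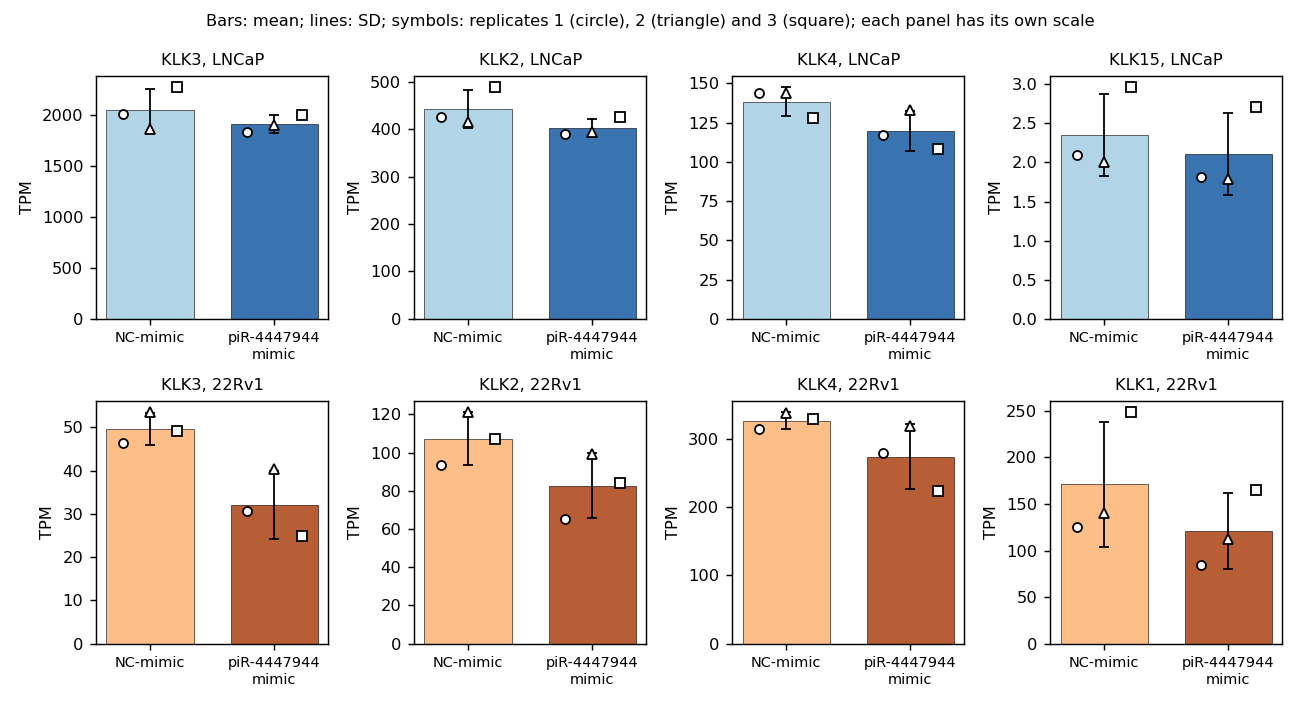
TPM of KLK3, KLK2 and KLK4 in both lines, of KLK15 in LNCaP and of KLK1 in 22Rv1, with bars for the mean of 3 libraries, lines for the SD and a symbol for each replicate. The 3 mimic values of KLK3 in 22Rv1 lie at 24.8 to 40.4 TPM, under the NC-mimic values of 46.3 to 53.4 TPM. The groups overlap for KLK3 in LNCaP and for KLK1 in 22Rv1, although each KLK1 mimic value lies under the NC-mimic value of the same replicate number.

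The sum of KLK3 and KLK2 was 139.6, 174.4 and 156.3 TPM in 22Rv1 with NC-mimic and 95.7, 139.5 and 108.8 TPM with the mimic. The groups were next to each other without overlap, and the exact two-sided permutation test gave p = 0.1, its smallest value. In LNCaP the sum was 2486 ± 247.1 and 2312 ± 104.4 TPM (SD, n = 3, exact p = 0.4). The KLK3 to KLK2 ratio differed by 0.125 in LNCaP and by -0.0735 in 22Rv1 between mimic and NC-mimic, both with an exact permutation p of 0.3.

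Whether the mimic acted differently in the lines was tested as an interaction over all 12 libraries, which are those of the comparisons above. edgeR called 0 of the 6 members and 0% of the 18720 genes tested at an adjusted p under 0.05, and 3.26% had an unadjusted p under 0.05, KLK3 among them. The difference in the log2 fold change, 22Rv1 minus LNCaP, was -0.66 ± 0.30 (SE) for KLK3, -0.37 ± 0.23 for KLK2 and -0.10 ± 0.18 for KLK4, each with an adjusted p of 1. KLK15 was at -0.26 ± 0.72. For KLK1 and KLK11, which had almost no counts in LNCaP, it was -0.71 ± 1.88 and -2.04 ± 1.19.

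**Figure D4:**
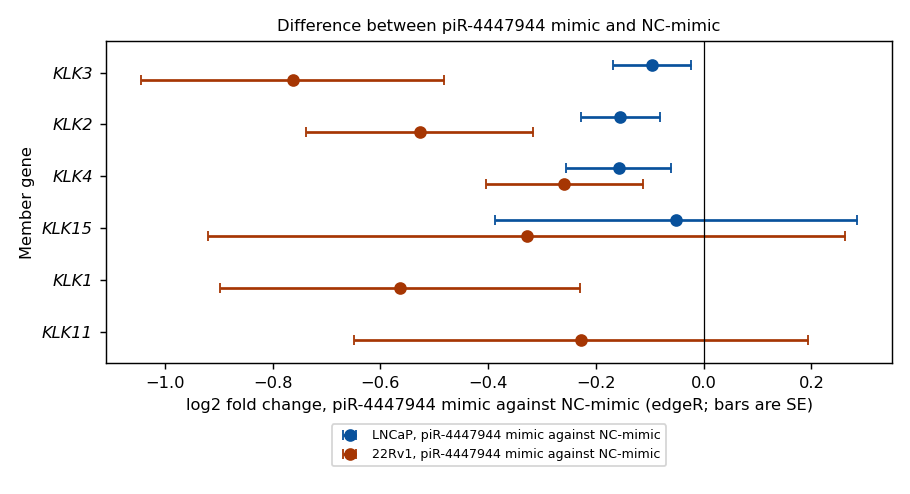
log2 fold change (x axis) of piR-4447944 mimic against NC-mimic for the members tested, with LNCaP in blue and 22Rv1 in brown and bars for the SE of edgeR. All points lie left of 0, from -0.16 to -0.05 in LNCaP and from -0.76 to -0.23 in 22Rv1, and none passed the adjusted test.

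Androgen-induced genes outside the family also differed between the lines but did not share one direction. Of 20 genes, all tested with NC-mimic, 6 were higher and 10 were lower in 22Rv1, where 30.9% of all genes were called higher and 27.5% lower. TRPM8, ADAM7 and STEAP4 were near 0 in one line, so their calls are no support. HPGD, which breaks down prostaglandins, was higher by 6.20 ± 0.63 and ZBTB10 by 3.13 ± 0.13. STEAP4, a metalloreductase, was at 0.0767 TPM in LNCaP and 0.640 TPM in 22Rv1. ABCC4, a transporter, was lower by -5.06 ± 0.35. TRPM8, a cold-sensing channel, was at 2.01 TPM in LNCaP and 0.0633 TPM in 22Rv1, and ADAM7 was at 13.7 and 0.0767 TPM (group means). With piR-4447944 mimic, 19 of the 20 were tested, 5 were higher and 8 were lower, beside 28.2% and 24.2% of all genes.

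Of 18 inhibitors, activators, receptors and substrates of kallikreins, 12 were tested with NC-mimic, and 3 were higher and 9 were lower in 22Rv1, beside 30.9% and 27.5% of all genes. SPINK5, A2M and SERPINA3 passed the filter through 1 line and had to differ, so the counts are no support for a direction of the list. A2M, which traps proteases, was at 0.0867 TPM in LNCaP and 4.83 TPM in 22Rv1, and SPINK5, an inhibitor of skin kallikreins, was at 0.0233 and 3.18 TPM. IGFBP3, a substrate of PSA, was higher by 1.06 ± 0.29. FN1, fibronectin, was lower by -3.78 ± 0.64 and the thrombin receptor F2R by -3.06 ± 0.19. SERPINA3, which binds PSA in blood, was at 0.723 TPM in LNCaP and listed at 0 in all 22Rv1 libraries. With piR-4447944 mimic, 11 were tested, 3 were higher and 7 were lower, beside the same shares of all genes as for the androgen-induced list.

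Between mimic and NC-mimic, 0 genes of these 2 lists were called by edgeR at an adjusted p under 0.05 in either line. By the study's rule, 1 of the 19 androgen-induced genes tested in LNCaP was lower, KCNN2 (-0.27 ± 0.09, adjusted p = 0.999), and 0 of the other genes of the lists met it in either line. In LNCaP the medians were -0.09 over androgen-induced genes and -0.01 over partners of the proteases. In 22Rv1 they were -0.06 and 0.21.

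Of the other kallikrein genes, KLK9 and KLK12 had 0 counts in all libraries, and KLK7, KLK13 and KLK14 had 4, 33 and 76 counts over the 12 libraries. The pseudogene KLKP1, between KLK2 and KLK4, was at 4.20 ± 1.26 TPM in LNCaP and 17.8 ± 3.75 TPM in 22Rv1 with NC-mimic (SD, n = 3). With piR-4447944 mimic it was at 5.09 ± 1.15 and 15.9 ± 1.45 TPM. In GENCODE v44, another KLKP1 entry, a long noncoding RNA gene on the same strand, overlaps it. Which of these entries the values cover was not tested.

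Among the genes whose pattern was most like that of KLK3 were ZNF703 and PCDH11Y, with a root mean square difference of 0.335 and 0.347 in gene-centred log2(CPM + 0.5) over the 12 libraries. PCDH11Y has a near-identical copy, so its counts are uncertain. KLK2 was like other genes, with DDR2 at 0.178 and CEP41 and CYB5A at up to 0.204. The difference between KLK3 and KLK2 themselves was 1.74, which put KLK2 at rank 710 in likeness to KLK3 and KLK3 at rank 15723 in likeness to KLK2 among 18720 genes. CYB5A, for instance, was at 334.8 TPM in LNCaP and 71.6 TPM in 22Rv1 with NC-mimic.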

How the data were processed

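mRNA of LNCaP and 22Rv1 cells was sequenced by the authors in 12 libraries, 3 in each of 4 groups of line and mimic, as the labels give them. The authors deposited expected counts per gene, estimated with RSEM 1.3.0 from reads aligned to hg38 with STAR 2.7.1a and not normalized, so that RSEM can divide a read among the genes it fits. They also deposited TPM, scaled by effective length and to the same sum in each library, so TPM carry no depth. The deposited gene lengths, effective lengths and transcript lists are of the same RSEM tables, and effective lengths were used only where they are printed. Per the submitters' processing notes, DESeq2 1.34.0 and R 4.1.1 were also used. The annotation version and the strand of the libraries are not given in the sources used here.

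Counts were rounded to whole numbers, and edgeR 4.0.16 in R 4.3.3 gave the main tests (TMM, filterByExpr, glmQLFit, glmQLFTest), with Benjamini-Hochberg adjustment over all genes of each fit and the limit at 0.05. Each comparison was fitted on its own 6 libraries and the interaction on all 12. Each SE is the estimate over the square root of its F value. The depth of 12161091 to 22179601 expected counts limits the precision of low genes. Intervals are exact 95% intervals, and the limit for a gene at 0 is 3 counts; both cover counting error only. Single values were compared with an exact two-sided permutation test (scipy 1.17.1), which cannot give a p below 0.1 with 3 against 3 libraries. Windows were aligned with Biopython 1.88. The edgeR fit was run on simulated counts with known changes, which checked the size of its estimates and not the calls in these data.

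The 10 members were named in every comparison. Of each list, up to 3 genes higher and 3 lower in 22Rv1 with the largest difference under NC-mimic were named, with every list gene that met the study's rule between mimic and NC-mimic, and the 3 genes most like KLK3 and KLK2. The members and lists were chosen with earlier results of these data known. Deviations from the group means correlated by 0.198, 0.167 and 0.355 between same-numbered libraries of 22Rv1. Each exceeded 0.1, so these libraries were taken as paired, from the values alone. The pairing entered the block alternative only, and the main fits and the permutation tests of 22Rv1 were unpaired. Replicates 1 and 2 also correlated across numbers, by 0.117 and 0.191, while replicate 3 against the others gave -0.277 to -0.199, so the check separates replicate 3 and does not tell replicates 1 and 2 apart. In LNCaP the correlations were 0.021, 0.005 and 0.189, and between the lines 0.005 to 0.104, so these were not. As alternatives, scaling by the size factors of DESeq2, leaving the filter out, asking for 10 or more counts per library, and the block were tried in edgeR, and further DESeq2 1.42.0 with shrunken fold changes, limma 3.58.1 on log2(TPM + 1) with and without a filter (3 or more libraries at 1 TPM) and on log2(TPM + 0.1), which understate the change of low genes, all 12 libraries in one fit, KLK3 and KLK2 counts summed, and leaving out libraries. Some genes that these rules name, and 1 gene list, are not reported here. Small RNA sequencing and other experiments of the study were not analysed here.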

Additional observations from a re-analysis of the deposited data

How the results depend on the processing

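Of 466 log2 fold changes of members under the alternatives, 450 kept their direction and side of the threshold, 5 lost the call and 11 reversed. This count shows little about stability, since many values could hardly change sides. Those of the mimic and the interaction were far from the threshold, and KLK1 and KLK11 had to differ between the lines. The summed fit was also counted for both KLK3 and KLK2. Leaving 1 of 3 libraries out cannot move a group mean by 1 SD, so that comparison of the mean levels shows nothing of their stability. No member was called between mimic and NC-mimic, nor in the interaction, at an adjusted p under 0.05 under any alternative, and KLK3, KLK2 and KLK4 were called between the lines under each. The calls lost were those of KLK15 between the lines: beside the libraries named in the report, limma on log2(TPM + 1) without a filter gave 1.17 with NC-mimic. With KLK3 and KLK2 counts summed, the line difference was -4.04 under NC-mimic and -4.52 under piR-4447944 mimic.

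All reversals were of differences under 0.35 that had passed no test, in members of low level except KLK4. With a library left out, KLK15 ranged from -0.23 to 0.15 in LNCaP (0.022 and 0.035 were the other values above 0), from -0.81 to 0.50 in 22Rv1 and from -0.76 to 0.56 in the interaction, and KLK11 from -0.64 to 0.14 in 22Rv1 (0.032 without mimic replicate 3). Without both replicate 3 libraries of 22Rv1, KLK15 was at 0.0088 in 22Rv1 and at 0.050 in the interaction, and KLK4 at 0.010 in the interaction. On log2(TPM + 0.1), KLK15 was at 0.035 in the interaction. The cause was not tested.

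Members meeting the study's rule numbered 1 in 22Rv1 with each of the 3 limma settings, against 2 in the report, 0 to 2 with a library left out, and 0 to 1 with a library left out in LNCaP. Of all genes in LNCaP, 361 met the study's rule, against 891 with no filter, 3 with DESeq2, 578, 560 and 895 with limma (log2(TPM + 1), log2(TPM + 0.1) and no filter), 168 with all 12 libraries and 284 to 1008 with a library left out, the highest without NC-mimic replicate 3. Calls at an adjusted p under 0.05 there numbered 0, against 46 with no filter, 2 with DESeq2, 1 with each limma setting and 0 to 2 with a library left out. In 22Rv1, 250 genes met the study's rule, against 532 with no filter, 459, 449 and 772 with limma, 1232 with all 12 libraries, 781 without both replicate 3 libraries and 183 to 376 with a library left out, the highest without mimic replicate 3. Calls at an adjusted p under 0.05 there numbered 0, against 1 with DESeq2, 2 and 3 with limma on log2(TPM + 1) and log2(TPM + 0.1), and 4 without both replicate 3 libraries. The interaction had 0 calls, against 3 with DESeq2, 2, 1 and 7 with limma, and 0 to 1 with a library left out.

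The replicate block raised the genes meeting the study's rule in 22Rv1 from 250 to 420. In LNCaP, where the numbers were not taken as pairs, the block gave 508 genes and 0 members. It changed no other call of a member. Depth limits KLK5, KLK6, KLK8 and KLK10, with 2, 0, 47 and 33 counts over 12 libraries, and KLK1 and KLK11 in LNCaP.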

Other observations

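The ratio of KLK4 to KLK3 TPM, a value chosen after the data were seen and not tested, was 6.79, 6.33 and 6.70 in 22Rv1 with NC-mimic and 9.12, 7.89 and 9.04 in 22Rv1 with piR-4447944 mimic. These groups did not overlap. In LNCaP the ratio was 0.0716, 0.0773 and 0.0563 with NC-mimic and 0.0641, 0.0701 and 0.0542 with piR-4447944 mimic, and the groups overlapped.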
